A study of Mus musculus with 20 samples.

Results

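Of 39 Hox cluster genes, 38 were described in 20 RNA-seq libraries of mouse embryonic heart. They were taken by symbol from the deposited table of 33495 genes, as every gene named Hoxa, Hoxb, Hoxc or Hoxd followed by a paralog number. By paralog group, 14 of the genes described belonged to groups 1 to 5, 8 to groups 6 to 8 and 16 to groups 9 to 13.

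The study deleted Kmt2d, which encodes a histone H3 lysine methyltransferase of enhancers and promoters, with 3 Cre drivers in C57BL/6 embryos. Controls were Cre; Kmt2d fl/+; mTmG/+ and mutants were Cre; Kmt2d fl/fl; mTmG/+, so the control hearts also carried Cre, 1 floxed allele and the mTmG reporter. Mesp1Cre, which is active in early cardiac mesoderm, was profiled in whole hearts at E9.0 (4 mutants and 4 controls). Tnnt2::Cre, which is active in cardiomyocytes, was profiled in whole hearts at E11.5 (3 mutants and 3 controls). Mef2cAHF::Cre, which is active in the anterior heart field, was profiled in the right ventricle and outflow tract at E11.5 (3 libraries labelled mutant and 3 labelled control). In each line the cells outside the Cre lineage kept their floxed alleles, and all the cells of the dissected tissue contributed RNA. Whether a library came from 1 embryo is not given in the sources used here, so p-values measure the spread between libraries.

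For Mef2cAHF::Cre the sample labels and the column names of the table gave opposite genotypes. Kmt2d itself measured 187 to 194 CPM (counts per 1000000 counted reads) in the libraries labelled mutant and 146 to 156 in those labelled control, a log2 fold change of 0.32 (SE 0.06, edgeR FDR 0.0359), which goes against the sample labels. In Mesp1Cre it was 128 to 144 in mutants and 152 to 164 in controls (log2 fold change -0.21, SE 0.07, FDR 0.0764). In Tnnt2::Cre it was 107 to 116 against 119 to 159 (-0.35, SE 0.12, FDR 0.327). The counts cover the whole gene, so reads outside the floxed part were counted in mutants too. Library totals ran from 21727258 to 45341870 counted reads, and all 10 cardiomyocyte markers passed the read filter in every comparison.

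Hox genes encode homeodomain transcription factors that assign position along the body axis. In each cluster their order along the chromosome parallels the order in which they are switched on, the low-numbered genes first and furthest forward. Retinoic acid activates the low-numbered genes, trithorax-group and polycomb-group proteins keep them on or off, and PBX and MEIS proteins bind DNA together with them. In the heart, Hoxb1 and Hoxa3 are known from progenitors of the second heart field that add to the outflow tract and atria, and cardiac neural crest cells entering the outflow tract also express low-numbered Hox genes.

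Hox transcripts were scarce in these hearts and came mainly from the low-numbered genes. The 38 genes together took 53 to 1267 reads per library, which was 2.07 to 50.7 CPM (median 15.2). Paralog groups 1 to 5 held 67.2% to 97.5% of those reads (median 90.3%), and groups 9 to 13 held 0% to 20.2% (median 4.64%, 0 to 78 reads). Reads from 7 genes, Hoxa2, Hoxa5, Hoxb1, Hoxb2, Hoxb3, Hoxb4 and Hoxb7, were present in all 20 libraries. At the other end, 16 genes had at most 10 reads in every library, among them every Hoxc gene from Hoxc10 upwards and every Hoxd gene from Hoxd10 upwards. Hoxc11 had 0 reads in all 20 libraries, where 3 reads would have been 0.0662 to 0.138 CPM, so any level below that was not detectable at this depth.

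**Figure D1:**
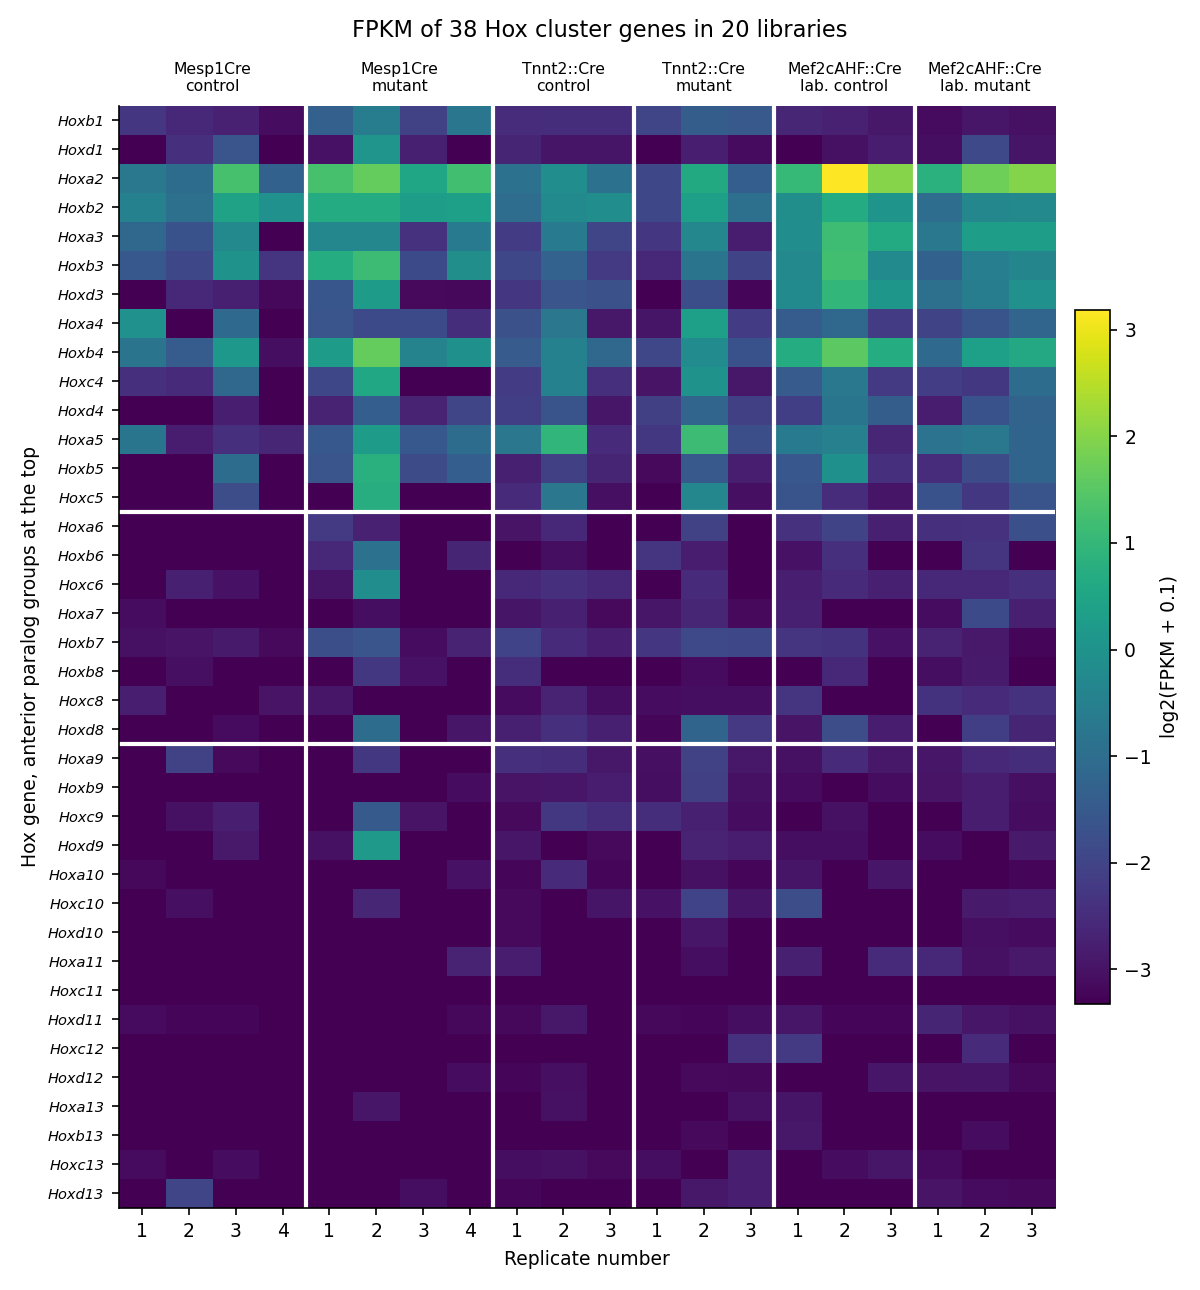
Log2(FPKM + 0.1) of 38 Hox genes (rows, paralog group 1 at the top to 13 at the bottom, white lines between the groups 1 to 5, 6 to 8 and 9 to 13) in the 20 libraries (columns, by group). The signal lies in the upper block in every library, and of the Mesp1Cre libraries mutant 2 has the most reads below the first white line.

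A Hox gene was called expressed where its mean FPKM (fragments per kilobase of gene and per 1000000 counted, as deposited) over a group was at least 0.1. In whole hearts at E9.0, with mutants and controls pooled, 15 of 38 Hox genes met this level, against 57.4% of all genes. In whole hearts at E11.5, 14 Hox genes met it (58.0% of all genes), and in the right ventricle and outflow tract 13 did (60.4% of all genes). Genes of paralog groups 1 to 5 made up 13, 12 and 12 of these, respectively. Hoxd9 at E9.0 was the only gene of groups 9 to 13 above the level in any of these 3 tissues, with 54 of its reads in Mesp1Cre mutant 2. All of Hoxa2 to Hoxa5 and Hoxb1 to Hoxb4 were above it in both whole-heart sets. In the right ventricle and outflow tract Hoxb1 was below it.

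By genotype, 8 Hox genes were expressed in Mesp1Cre controls (56.0% of all genes) and 19 in Mesp1Cre mutants (57.5%). Tnnt2::Cre controls had 11 (57.3%) and mutants 14 (58.1%). For Mef2cAHF::Cre, 12 were expressed in the libraries labelled control and 13 in those labelled mutant (60.4% in both), which by the column names are the mutants and the controls. Much of the Mesp1Cre difference came from mutant 2. Leaving out the library richest in Hox reads in each group, which in Mesp1Cre was mutant 2 and control 3, left 7 in Mesp1Cre controls and 9 in mutants, 9 and 8 in Tnnt2::Cre controls and mutants, and 12 in both Mef2cAHF::Cre groups. In the E9.0 hearts as a whole 9 were then expressed, none above paralog group 5.

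**Figure D2:**
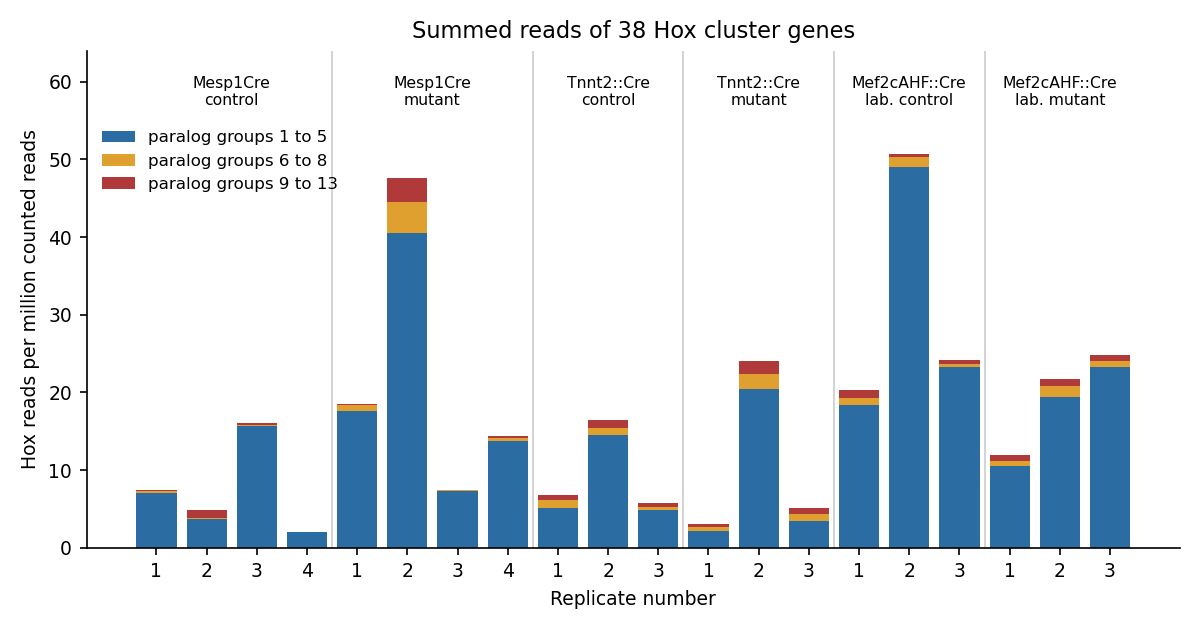
Hox reads as CPM (y axis) in each of the 20 libraries (x axis, by group), stacked by paralog groups 1 to 5, 6 to 8 and 9 to 13. The tallest bars are Mef2cAHF::Cre labelled control 2 (50.7) and Mesp1Cre mutant 2 (47.6), the shortest is Mesp1Cre control 4 (2.07), and groups 1 to 5 fill most of every bar.

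The levels of single genes per length were low. In E9.0 controls the highest means were 0.887 FPKM ± 0.969 (SD, n = 4) for Hoxa2, which specifies the second pharyngeal arch, and 0.794 ± 0.351 for its paralog Hoxb2. Hoxb4 followed at 0.443 ± 0.419 and Hoxb3 at 0.35 ± 0.365. These neighbours overlapped within their spread. In E11.5 whole-heart controls Hoxa5, a gene of lung and foregut mesenchyme, averaged 0.806 ± 0.93 (SD, n = 3), with 1 library of the 3 at 1.85. There Hoxb2 (0.654 ± 0.223) and Hoxa2 (0.568 ± 0.212) came next, again within the spread of one another. The highest levels were in the right ventricle and outflow tract labelled control, where Hoxa2 reached 4.94 ± 3.63, Hoxb4 1.96 ± 0.75, Hoxa3 1.47 ± 0.662 and Hoxb3 1.25 ± 0.862. None of the 38 averaged 1 FPKM in E9.0 controls or in either Tnnt2::Cre group, whereas 4 did in Mesp1Cre mutants, 6 in the right ventricle and outflow tract labelled control and 1, Hoxa2, in that labelled mutant.

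The right ventricle and outflow tract at E11.5 was compared with whole heart at the same stage, using the Mef2cAHF::Cre libraries labelled control and the Tnnt2::Cre controls. Hoxa2, Hoxa3, Hoxb3, Hoxb4 and Hoxd3 were higher in the right ventricle and outflow tract, with log2 fold changes of 2.0 to 2.87. These 5 were among 9 members with enough reads to be tested, and no tested member passed in the other direction. Over all genes, 39.8% of those tested passed the threshold and 18.6% were higher. The median log2 fold change of the 9 was 2.0, against 0.02 over all genes tested. The read filter keeps a gene that is high in only 1 group, so such medians and counts over tested members are descriptions. Levels in the comparisons are CPM of the TMM-scaled library, scaled anew in each comparison.

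Hoxd3, a gene of paralog group 3 that acts in the vertebral column and shares functions with Hoxa3, measured 2.84, 6.67 and 3.9 CPM in the 3 right ventricle and outflow tract controls and 0.442, 1.0 and 0.946 in the whole hearts. The lowest right ventricle and outflow tract library was above the highest whole heart (log2 fold change 2.5, SE 0.4, edgeR FDR 0.00112). Hoxa2 measured 3.24, 13.9 and 6.71 against 0.837, 1.54 and 0.885. Control 2 was the highest and the groups again did not overlap (2.87, SE 0.49, FDR 0.00169). For Hoxb4, also known as a regulator of blood stem cells, the values were 3.04, 5.28 and 3.18 against 0.604, 1.43 and 0.854 without overlap (2.0, SE 0.36, FDR 0.00202).

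The other genes of paralog group 3, Hoxb3 and Hoxa3, were higher too. Hoxb3 measured 1.62, 4.65 and 1.76 against 0.418, 0.801 and 0.305 (2.39, SE 0.5, FDR 0.00479). Hoxa3, needed for derivatives of the third pharyngeal arch, measured 2.67, 6.57 and 5.02 against 0.442, 2.06 and 0.61 (2.21, SE 0.53, FDR 0.00916). Neither gene's groups overlapped. The other tested members, Hoxa4, Hoxa5, Hoxb2 and Hoxc4, had log2 fold changes of -0.22, -1.21, 0.49 and -0.13 and did not pass. Hoxa5 measured 0.946, 1.01 and 0.112 against 0.976, 3.72 and 0.153, and Hoxb2 0.845, 1.43 and 1.01 against 0.465, 0.887 and 1.01, both with overlap.

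**Figure D3:**
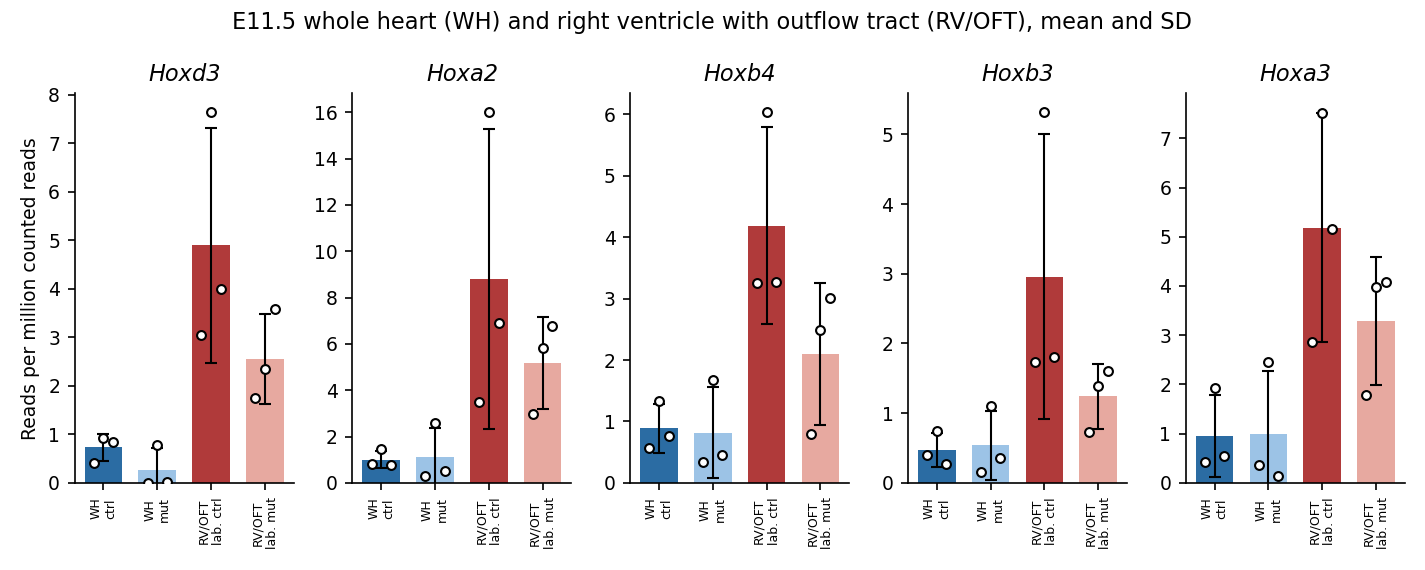
CPM of the library total (y axis, not TMM-scaled) of Hoxd3, Hoxa2, Hoxb4, Hoxb3 and Hoxa3 in E11.5 whole heart (Tnnt2::Cre control and mutant) and in the right ventricle and outflow tract (Mef2cAHF::Cre labelled control and labelled mutant). Bars are means, error lines the SD and points the 3 libraries of each group, and both right ventricle and outflow tract groups have higher means than both whole-heart groups for each gene.

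Taking the column names instead of the labels, so that the other 3 Mef2cAHF::Cre libraries were the controls, 4 members passed (38.6% of all genes tested passed). Hoxa2 (2.27, SE 0.34, FDR 0.000484), Hoxd3 (1.72, SE 0.37, FDR 0.00393), Hoxa3 (1.7, SE 0.51, FDR 0.0225) and Hoxb3 (1.31, SE 0.43, FDR 0.0346) were higher. Hoxb4 was at 1.16 (SE 0.46) and no longer passed (FDR 0.0717). With the controls of the sample labels, leaving out any 1 of the 6 libraries left 5 or 6 members past the threshold. The share over all genes in those fits is not given here. Dissection, Cre line and a number in the column names of the table changed together here and cannot be told apart. The meaning of that number is not given in the sources used here. By the column names the libraries labelled control are mutants, so in the comparison that used them genotype would change with the dissection too. In bulk tissue, more cells of a type and more RNA per cell cannot be told apart either.

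Markers of other tissues differed in the comparison that used the controls of the sample labels. Somite markers summed to as much as 54.4 CPM in the right ventricle and outflow tract, where every library was above the 12.4 to 13.7 of whole heart, and 2 of 6 markers passed upward (3 tested). Gut and lung endoderm markers summed to 3.35 to 10.5 against 1.68 to 2.97, with 2 of 8 passing upward (3 tested) and Shh at 0 in these 6 libraries. Neural tube markers summed to 1.23 to 2.08 against 0.668 to 0.816, with 1 of 7 passing upward (2 tested). The library with the most Hox reads, labelled control 2, was also the highest for the somite, endoderm and neural tube sums. Of the right ventricle and outflow tract libraries it also had the highest epicardial (208) and sinus venosus (65.2) marker sums. Its cardiomyocyte (15916) and erythroid (8028) sums were the lowest of these libraries, and its neural crest sum was 25.5. Neural crest markers summed to 25.0 to 37.2 against 21.5 to 24.2, and none of the 4 tested passed. Of 10 cardiomyocyte markers 7 were lower and 1 higher, and all 6 erythroid markers were lower (8028 to 31960 against 88928 to 143695). Sinus venosus and posterior second heart field markers summed to 37.2 to 65.2 against 86.2 to 99.3 without overlap. Of the 6 tested, Isl1 was higher (2.21) and Shox2 (-4.5), Hcn4 (-2.34) and Tbx5 (-1.71) were lower. By the column names the controls are the libraries labelled mutant. There the somite sum was 27.1 to 34.5, the endoderm sum 3.54 to 4.02 and the neural tube sum 0.929 to 1.07, all still above whole heart. The markers passing were not counted for that reading. The part of these markers in the Hox difference was not tested.

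Of the genes of cofactors, upstream signals and chromatin regulators of Hox genes, 18 of 56 tested passed between the tissues with the labelled controls (32.1%). This was a smaller share than the 39.8% of all genes tested. By list, 4 of 8 cofactor genes were higher in the right ventricle and outflow tract and 2 were lower. Meis2 rose by 1.19 on the log2 scale, Pknox2 by 0.73, Pbx3 by 0.71 and Meis1 by 0.55. Of 12 genes of retinoic acid synthesis, transport and breakdown 2 were higher, the synthetic enzymes Aldh1a1 (1.32) and Aldh1a2 (0.61), and none was lower. Aldh1a1 was lower in the libraries labelled mutant than in those labelled control (-1.34). None of the lists was counted with the controls of the column names. Of 6 receptor genes, Rarg was higher (0.61) and Rxrb lower (-0.43). Egr2, which activates Hoxa2 and Hoxb2 in the hindbrain, was higher (1.8). Of the chromatin regulators, 3 of 12 trithorax-group genes were higher and none lower, and of 16 polycomb-group genes 2 were higher and 2 lower.

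The promoters of Hoxa2, Hoxa3, Hoxb4 and Hoxd3, 4 of the 5 members past the threshold between these tissues with the labelled controls, are shown because they moved together. That of Hoxb1 is shown because its genotype effect differed between Mesp1Cre and Mef2cAHF::Cre by the sample labels, although not by the column names. Each is the 250 bases before the RefSeq start on the strand of the gene in GRCm38.p6, and entries were found for 22 Hox genes, and not for Hoxb3. Capitals mark TGATNNAT (a PBX-HOX motif), TGACAG (a MEIS motif) and AGGTCA (the retinoid receptor half-site), on either strand.
Hoxa2 (chr6:52164832-52165081, minus strand): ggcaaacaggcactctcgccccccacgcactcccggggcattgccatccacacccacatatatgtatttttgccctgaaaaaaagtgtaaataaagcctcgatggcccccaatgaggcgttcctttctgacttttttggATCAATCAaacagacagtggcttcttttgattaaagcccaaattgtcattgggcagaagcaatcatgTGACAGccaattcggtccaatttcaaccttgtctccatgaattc
Hoxa3 (chr6:52213068-52213317, minus strand): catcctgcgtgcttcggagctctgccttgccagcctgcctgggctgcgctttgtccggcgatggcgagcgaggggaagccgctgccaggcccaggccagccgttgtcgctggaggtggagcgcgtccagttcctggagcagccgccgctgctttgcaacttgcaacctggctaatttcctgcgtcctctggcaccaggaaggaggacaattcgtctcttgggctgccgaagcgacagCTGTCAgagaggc
Hoxb4 (chr11:96318017-96318266, plus strand): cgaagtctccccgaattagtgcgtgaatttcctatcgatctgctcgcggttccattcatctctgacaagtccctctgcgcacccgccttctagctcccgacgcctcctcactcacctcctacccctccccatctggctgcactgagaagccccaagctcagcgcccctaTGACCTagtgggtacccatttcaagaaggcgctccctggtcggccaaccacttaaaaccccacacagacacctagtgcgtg
Hoxd3 (chr2:74711743-74711992, plus strand): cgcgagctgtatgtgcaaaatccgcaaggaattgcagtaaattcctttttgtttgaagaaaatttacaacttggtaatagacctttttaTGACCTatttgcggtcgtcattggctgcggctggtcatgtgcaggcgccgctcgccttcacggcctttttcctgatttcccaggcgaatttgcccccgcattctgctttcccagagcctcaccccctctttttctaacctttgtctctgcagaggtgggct
Hoxb1 (chr11:96365508-96365757, plus strand): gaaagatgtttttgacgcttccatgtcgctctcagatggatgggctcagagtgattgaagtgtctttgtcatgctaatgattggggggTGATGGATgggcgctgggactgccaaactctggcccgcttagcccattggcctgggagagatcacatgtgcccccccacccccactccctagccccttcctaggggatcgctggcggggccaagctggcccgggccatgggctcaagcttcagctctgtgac

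In these windows Hoxb1 and Hoxa2 held the PBX-HOX motif, which was in 7.68% of 32851 promoters of this length and in those of 4 of the 22 Hox genes. Hoxa2 and Hoxa3 held the MEIS motif (15.9% of all promoters), as the only Hox genes to do so. Hoxb4 and Hoxd3 held the retinoid half-site, which was in 14.0% of all promoters and in those of 6 Hox genes. A match of these letters describes the sequence and is not evidence of binding.

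The stages were compared in control whole hearts, Tnnt2::Cre at E11.5 against Mesp1Cre at E9.0. Hoxd3 was higher at E11.5, and it was the only member past the threshold among the 8 tested. Of all genes tested 38.3% passed and 19.6% were higher. The Tnnt2::Cre controls are the same libraries as in the tissue comparison. Hoxd3 measured 0.415, 0.947 and 0.883 CPM at E11.5 and 0, 0.273, 0.187 and 0.0387 at E9.0. The groups did not overlap, although the E9.0 values rested on 0 to 7 reads (log2 fold change 2.56, SE 0.81, edgeR FDR 0.0271). Without Tnnt2::Cre control 2 its change was 2.37 (FDR 0.108), without control 3 it was 2.42 (FDR 0.107) and without Mesp1Cre control 4 it was 2.27 (FDR 0.0545), and the other 4 single omissions kept it past the threshold.

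Hoxa5 measured 0.918, 3.52 and 0.142 at E11.5 and 0.906, 0.078, 0.15 and 0.116 at E9.0. The groups overlapped, with Tnnt2::Cre control 2 far above the rest (2.25, SE 0.98, FDR 0.0932, and 0.0441 without Tnnt2::Cre control 3, with a change of 2.8). None of the other tested members passed. Hoxb3 measured 0.394, 0.758 and 0.285 at E11.5 and 0.593, 0.39, 2.02 and 0.232 at E9.0 (-0.76, FDR 0.448), and Hoxa2 0.787, 1.46 and 0.826 against 0.906, 0.702, 3.97 and 0.542 (-0.58, FDR 0.528). In both the highest library was Mesp1Cre control 3 and the groups overlapped. Hoxb2 measured 0.437, 0.839 and 0.94 against 0.697, 0.468, 1.31 and 0.969 (-0.23, FDR 0.759). Without Mesp1Cre control 3 these 3 changes turned to 0.24, 0.51 and 0.05 in the same order. Hoxa4 measured 0.328, 0.812 and 0.0569 against 1.39, 0, 0.562 and 0, with 2 of the E9.0 libraries at 0 (-0.31, FDR 0.865). The median over the 8 was -0.21, against 0 over all genes.

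Of the tested cofactor, upstream and chromatin genes 24 of 56 passed between the stages (42.9%), close to the 38.3% of all genes tested, and 10 were higher and 14 lower. Of 12 genes of synthesis, transport and breakdown 3 were higher at E11.5, the synthetic enzyme genes Aldh1a2 (4.17) and Aldh1a1 (2.29) and the retinaldehyde reductase gene Dhrs3 (2.1). Another 4 were lower, led by Crabp2 (-2.51), which carries retinoic acid to its receptors. Of the 6 receptor genes 3 were higher, led by Rarg (1.82). Of the cofactors, Meis1 (-0.61), Meis2 (-0.5) and Pbx2 (-0.46) were lower and none of the 8 was higher. Of the chromatin regulators, 2 of 12 trithorax-group genes were lower, and of 16 polycomb-group genes 3 were higher and 4 lower. All 6 epicardial markers were higher at E11.5 (176 to 193 against 21.3 to 67.1 CPM), as were all 6 erythroid markers (88928 to 143695 against 5044 to 16899). Of somite markers 1 was tested and was higher (sums 12.4 to 13.7 against 0.351 to 5.28). Sinus venosus and posterior second heart field markers summed to 86.2 to 99.3 at E11.5, all below the E9.0 hearts, of which the lowest had 147, with 3 of 6 tested lower. Neural crest markers summed to 21.5 to 24.2 against 11.6 to 13.9, with 1 of 3 tested higher. The part of these in the Hoxd3 difference was not tested. Stage, Cre line and the number in the column names cannot be told apart.

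In Mesp1Cre hearts at E9.0, none of the 7 members tested here passed the threshold between Kmt2d mutants and controls, while 11.47% of all genes tested passed and 6.17% were higher. By edgeR 0 of the 7 had an unadjusted p under 0.05, against 4267 of all 15883 genes tested. DESeq2, which tested 11, called 2, Hoxb1 and Hoxd3, and it called 16.5% of all genes it tested. All 7 had log2 fold changes above 0, from 0.51 to 2.46, with a median of 1.38 against 0 over all genes tested. By deposited FPKM, the mutant mean was higher for 28 of the 38 genes, lower for 6 and equal for 4. Over all genes, the mutant mean was higher for 63.8% of those whose means were not equal.

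Hoxa2 measured 3.92, 5.21, 2.28 and 3.69 in mutants and 0.964, 0.755, 4.27 and 0.576 in controls (1.2, SE 0.57, FDR 0.199). Control 3 lay inside the mutant range and the other 3 controls below it. Without control 3 the change in Hoxa2 was 2.29 (FDR 0.00824), and over 9 other settings with all 8 libraries its FDR ran from 0.0779 to 0.202. Hoxb4 measured 2.24, 6.3, 1.32 and 1.73 against 1.07, 0.629, 2.22 and 0.0412 (1.54, SE 0.75, FDR 0.211), and Hoxb5 0.387, 2.88, 0.307 and 0.481 against 0, 0, 0.726 and 0 (2.46, SE 1.22, FDR 0.218). In each of these genes mutant 2 was the highest mutant and control 3 the highest control. Without control 3, whose reads were the only ones of Hoxb5 among controls, Hoxb5 passed too (FDR 0.0244). Hoxb3 measured 3.4, 4.9, 0.395 and 1.85 against 0.63, 0.42, 2.18 and 0.247, with mutants 3 and 4 inside the control range (1.6, FDR 0.191). Hoxa5 (1.38, FDR 0.305), Hoxb2 (0.58, FDR 0.458) and Hoxa3 (0.51, FDR 0.755) overlapped too, and for Hoxb2 the values were 1.55, 1.59, 1.18 and 1.2 in mutants and 0.741, 0.504, 1.41 and 1.03 in controls.

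Mutant 2 and control 3 were the Hox-rich libraries of their groups, at 47.6 and 16.1 Hox CPM, and the other libraries had 7.5 to 18.5 in mutants and 2.07 to 7.43 in controls. Mutant 2 alone held most reads of several genes that were otherwise at or near 0. Hoxc5, for example, had 103 reads there and 0 in the other 3 mutants, Hoxd3 had 111 against 1 to 21, and Hoxd9, Hoxc4 and Hoxd1 had 54, 57 and 44. With both libraries left out, a choice made after seeing the data, 1 of 6 tested members passed, Hoxa2 (2.1, FDR 0.0173). The share over all genes in that fit is not given here.

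Hoxb1 (ENSMUSG00000018973, mm9 chr11:96227066-96229570, plus strand), which patterns the hindbrain and is active in the second heart field, fell below the read filter of this comparison. It measured 0.646, 1.28, 0.307 and 1.04 CPM in mutants (7 to 33 reads) and 0.259, 0.168, 0.121 and 0.0412 in controls (1 to 7 reads). Every mutant lay above every control. In a single fit of all 6 groups, where it passed the filter and 19.5% of all genes tested passed the threshold, its log2 fold change was 2.42 (SE 0.53, FDR 0.00403). DESeq2 gave 2.47 (FDR 0.025), and edgeR with no filter gave an FDR of 0.0768. Hoxd3, with 111 of its reads in mutant 2, was at 3.31 by DESeq2 (FDR 0.0441), 3.29 in the fit of all groups (FDR 0.0575) and 3.28 with no filter (FDR 0.116).

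Of the genes of cofactors, upstream signals and chromatin regulators of Hox genes, 7 of 56 tested passed in Mesp1Cre (12.5%), close to the 11.47% of all genes tested. Of 8 cofactor genes, Meis1 (0.44, FDR 0.00889) and Meis2 (0.39, FDR 0.0152) were higher and none was lower. The receptor gene Rarb, itself a retinoic acid target, was higher (0.83, FDR 0.00434), as 1 of 6 receptors, and none of the 12 genes of retinoic acid synthesis, transport and breakdown passed. Gdf11, a signal for posterior Hox expression, was lower (-1.01, FDR 0.000638), and Cdx2 and Cdx4 had 0 reads. Of the chromatin regulators, the trithorax-group members Jmjd3 (0.63) and Kmt2c (0.29) and the polycomb-group member Jarid2 (1.02) were higher, out of 12 and 16.

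Gut and lung endoderm markers summed to 5.05 to 15.7 CPM in the mutants and 2.03 to 19.8 in the controls. The highest was control 3, and Sox17 was the only 1 of the 8 that passed, upward (2 tested, Hnf4a at 0). The somite sum was highest in control 3 too, at 5.28, against 0.32 to 2.34 in the mutants. Mutant 2, the library richest in Hox reads, had the lowest somite sum of both groups (0.32). Its endoderm and neural tube sums were 9.61 and 1.56. Neural tube markers summed to 1.33 to 2.37 in mutants and 0.858 to 1.88 in controls, with 1 of 7 tested, none passing, and Sox1 and Neurog2 at 0. Of 6 endothelial markers 3 were higher (sums 619 to 772 against 437 to 511), and 4 of 6 erythroid markers were lower (2047 to 7734 against 5044 to 16899). Sinus venosus and posterior second heart field markers summed to 285 to 393 in mutants, above every control (the lowest had 147), and 1 of the 6 tested passed, Tbx5 (0.74, FDR 0.00715). Neural crest markers summed to 6.12 to 10.1 in mutants and 11.6 to 13.9 in controls, also without overlap, and of 2 tested Erbb3 was lower (-1.73, FDR 0.00196). The part of these in the Hox values was not tested.

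In Tnnt2::Cre hearts at E11.5 none of the 10 members tested here passed the threshold. Of these, 4 had log2 fold changes above 0 and 6 below, with a median of -0.09. By edgeR 1 had an unadjusted p under 0.05, as had 2034 of all 17045 genes tested, and over all genes 0.293% passed and 0.0763% were higher. DESeq2 called 0 members and 2.18% of all genes. Hoxb1 was the member with an unadjusted p under 0.05, at 0.381, 0.578 and 0.558 CPM in mutants (16 to 23 reads) and 0.179, 0.194 and 0.204 in controls (7 or 8 reads). Its groups did not overlap (0.506 ± 0.109 against 0.192 ± 0.0125, SD, n = 3 each), with a log2 fold change of 1.38 (SE 0.39, edgeR unadjusted p = 0.00678, FDR 0.246). Hoxd3 measured 0, 0.704 and 0.0266 in mutants and 0.426, 0.969 and 0.904 in controls, and the groups overlapped through mutant 2 (-1.63, SE 1.01, FDR 0.572).

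In this line too, 1 library of each group was rich in Hox reads. Mutant 2 had 24.0 Hox CPM against 3.08 and 5.11 in the other mutants, and control 2 had 16.5 against 6.84 and 5.79. Hoxa5 measured 0.214, 3.49 and 0.345 in mutants and 0.941, 3.6 and 0.146 in controls. Hoxb2 measured 0.19, 1.16 and 0.452 in mutants and 0.448, 0.858 and 0.962 in controls (-0.32, FDR 0.875), Hoxa2 0.309, 2.29 and 0.478 against 0.806, 1.5 and 0.845 (-0.03, FDR 0.992), and Hoxb4 0.357, 1.48 and 0.425 against 0.582, 1.38 and 0.816 (-0.29, FDR 0.888). In each of these, mutant 2 was the highest and mutant 1 the lowest of the 6 libraries except in Hoxa5, where control 2 was the highest and control 3 the lowest. Hoxc5 had 0, 66 and 2 reads against 9, 49 and 2, and Hoxc4 had 2, 52 and 2 against 9, 39 and 5. The endoderm and neural tube sums were highest in mutant 2 (3.59 and 1.38 CPM). So were the endothelial (598), sinus venosus (132), neural crest (25.0) and liver (80.9) marker sums. Its erythroid sum was the lowest (20191), and its somite sum (10.8) was below every control (12.4 to 13.7). In control 2 the endoderm sum was 2.97, against 1.9 and 1.68 in the other controls, and its neural tube sum of 0.668 was the lowest. Its somite (13.7) and erythroid (143695) sums were the highest. The part of these sums in the Hox values was not tested. Of the regulators and cofactors only Aldh1a1 passed (1.48, FDR 0.0113), 1 of 55 tested (1.82%, against 0.293% of all genes).

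In the right ventricle and outflow tract of Mef2cAHF::Cre embryos none of the 11 members tested here passed under either reading of the labels. By the sample labels, 3 had log2 fold changes above 0 and 8 below, with a median of -0.59. By edgeR 1 had an unadjusted p under 0.05, as had 3037 of all 16920 genes tested, and over all genes 2.85% passed and 1.81% were higher. DESeq2 called 0 members and 6.14% of all genes. Reading the genotypes from the column names exchanges the groups, so that every sign turns and the counts become 8 above and 3 below, with the p-values as they were.

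Hoxb3 had the lowest p, at 0.765, 1.47 and 1.66 CPM in the libraries labelled mutant and 1.67, 4.8 and 1.82 in those labelled control. The highest of the first group and the lowest of the second nearly met (-1.08, SE 0.45, edgeR unadjusted p = 0.0412, FDR 0.251, and 1.08 by the column names). Hoxd3 measured 1.86, 2.48 and 3.68 against 2.93, 6.89 and 4.02 (-0.77, SE 0.35, FDR 0.285, and 0.77 by the column names). Hoxb4 measured 0.838, 2.63 and 3.1 against 3.14, 5.44 and 3.29 (-0.84, SE 0.42, FDR 0.336). Labelled control 2 was the highest of the 6 libraries for each of these 3 genes and for Hoxa2, which measured 3.13, 6.13 and 6.98 against 3.35, 14.4 and 6.92 (-0.59, FDR 0.571). Hoxa3 measured 1.89, 4.21 and 4.21 against 2.76, 6.78 and 5.18, with overlap (-0.5, FDR 0.537). Hoxc5 had the largest change upward (0.85, SE 0.62, FDR 0.533, and -0.85 by the column names). Of the genes of cofactors, upstream signals and chromatin regulators 3 of 55 tested passed (5.45%, against 2.85% of all genes). None of the 8 cofactors passed. Aldh1a1 (-1.34, FDR 0.00245) and Jarid2 (-0.4, FDR 0.0465) were lower in the libraries labelled mutant. The other gene was Kmt2d itself, which was higher (0.32). By the column names these signs turn.

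**Figure D4:**
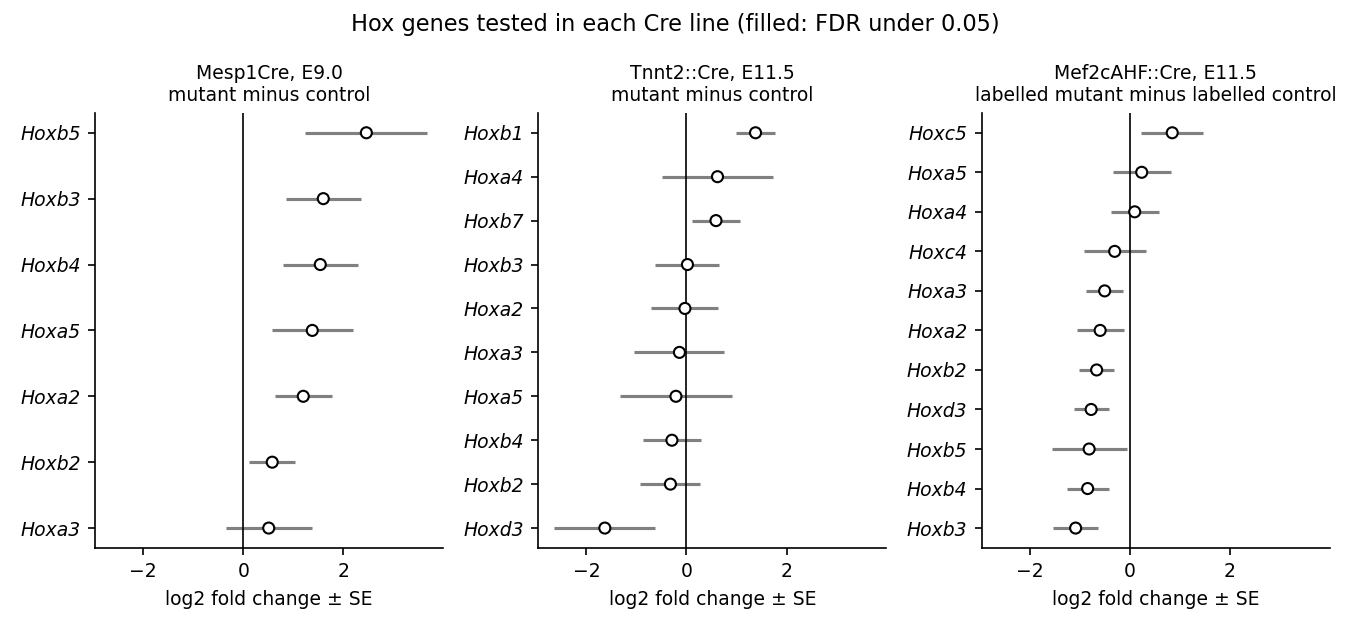
Log2 fold change, mutant minus control by the sample labels, of each tested Hox gene in the 3 Cre lines (points, with lines of 1 SE). A filled point would mark an FDR under 0.05, and none of those shown is filled. All 7 Mesp1Cre points lie above 0 while the other lines have points on both sides.

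Whether the Kmt2d effect differed between the lines was tested as an interaction in the fit of 6 groups, with 15 members tested. These tests share the libraries of the comparisons within lines. Their counts by unadjusted p are given without the share over all genes. Between Mesp1Cre and Tnnt2::Cre none of them passed by edgeR (1 had an unadjusted p under 0.05) or by DESeq2, while 3.04% of all genes passed by edgeR. That member was Hoxd3, with an effect larger by 4.93 on the log2 scale in Mesp1Cre (SE 1.7, edgeR FDR 0.117). Without Tnnt2::Cre mutant 2, the mutant with the most Hoxd3 reads in that line, it passed (8.81, SE 2.1, FDR 0.0239). The Tnnt2::Cre mutants then left were at 0 and 0.0266 CPM. In Mesp1Cre, Hoxd3 was at 4.32 CPM in mutant 2 and 0.0401 to 0.904 in the other mutants.

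Between Mesp1Cre and Mef2cAHF::Cre 1 of 15 members passed the FDR threshold by the sample labels, against 11.3% of all genes. An unadjusted p under 0.05 was found for 6 by edgeR. The share over all genes for that count is not given here, so it is a description only. The member that passed was Hoxb1, whose effect was larger by 3.34 in Mesp1Cre (SE 0.93, FDR 0.025), and DESeq2 called it too (3.43, FDR 0.0295). By the column names the difference was 1.5 (SE 0.99, FDR 0.486), and none of the members tested passed (0 had an unadjusted p under 0.05, and 1.63% of all genes passed). The Mef2cAHF::Cre values behind it were 0.0364 to 0.0753 CPM in the libraries labelled mutant and 0.0774 to 0.14 in those labelled control, a few reads each. The call was lost without Mef2cAHF::Cre labelled mutant 1 (3.13, FDR 0.0749) or 3 (3.33, FDR 0.0638), or labelled control 1 (3.12, FDR 0.0724) or 2 (3.34, FDR 0.0646). Between Mef2cAHF::Cre and Tnnt2::Cre none passed by edgeR under either reading or by DESeq2 (with the labels 1 had an unadjusted p under 0.05, with the column names 0, and 3.19% and 0% of all genes passed), and Hoxb1 was at -2.29 (FDR 0.238) by the labels and -0.45 (FDR 1.0) with the genotypes of the columns.

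Genes of the clusters lie close together, and their counts are not independent where exons overlap. In the vM1 annotation 12 of the 38 genes share exonic bases with a gene on the same strand and 7 with one on the opposite strand, while 21 share none. Hoxb2 and Hoxb3 share 49.4% and 37.9% of theirs with the antisense gene Hoxb3os. Hoxd3 and Hoxd4 share 29.8% and 67.4% of theirs with each other. Hoxa3 shares 33.0% with another gene model of the same name. How reads in shared exons were assigned is not given in the sources used here, so values of these genes are uncertain to that extent.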

How the data were processed

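Total RNA of embryonic hearts was sequenced after amplification with kits not said to mark strand. The labels and the methods differ on the kit and instrument. The authors aligned reads to mm9 and deposited raw counts per gene (the methods name featureCounts for assigning reads, while the deposited table credits its counts and FPKM alike to USeq; TopHat2 2.0.8b is in the submitters' processing notes, its role not given in the sources used here). The authors also deposited FPKM values, used here for levels and for calling a gene expressed. The 20 columns of variance-stabilised values were not used. The treatment text gives E11.5 for all embryos, and the stage labels of E9.0 for Mesp1Cre were followed.

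The members and gene lists were chosen with earlier results of these data known, and 1 of the 39 Hox genes and some genes of the lists are not reported here. Counts were tested in R 4.3.3 with the quasi-likelihood test of edgeR 4.0.16 (TMM, filterByExpr, only the groups compared, no covariates), fitted over all genes, with Benjamini-Hochberg FDR and a threshold of 0.05. Interactions came from 1 fit of the 6 groups. Values in every library are given for members past the threshold in a line, for the 4 with the highest mean FPKM in each control group and for up to 6 by FDR between stages and tissues, and up to 4 genes of a list are named by FDR. Other members named were chosen after their values were seen. DESeq2 1.42.0, limma 3.58.1 on log2(FPKM + 0.1) and log2(FPKM + 1), other size factors, filters, blocks and single omissions were the alternatives. Replicate numbers were not treated as pairs, since same-numbered libraries deviated with correlations of -0.036 to 0.177. The Mesp1Cre sample names also carry a number (747 in replicates 1 and 2, 748 in 3 and 751 in 4 of both genotypes) whose meaning is not given in the sources used here, and it was tried as a block. The tests were checked on simulated counts with 1 common spread and with changes only in genes above 1 CPM. Per comparison, 52 to 91 of 100 2-fold changes and all 100 4-fold changes were recovered, with 2 to 12 unchanged genes called. Most Hox genes were below 1 CPM and uneven between libraries, so the check does not cover them. Gene positions are those of the deposited table in mm9, written from base 1, and exon overlaps are from the vM1 annotation. At 53 to 1267 Hox reads per library, floors of 3 reads cover counting error only.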

Additional observations from a re-analysis of the deposited data

Results flagged for a closer look

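Within the Mesp1Cre groups of 4, 22 checks of the tested members for a library set apart from the other 3 gave 5 flags. The cutoff flags about 1 in 20 only for independent, normally spread values. These values rest on few reads and on the same libraries, so the number of flags is a description. Among controls, Hoxa2 was 4.27 CPM in control 3 and 0.576 to 0.964 in the others, and Hoxb5 was 0.726 there and 0 in the others. With the others at 0, any value of Hoxb5 above 0 would be flagged. Hoxa5 was 0.964 in control 1 and 0.0839 to 0.161 in the other controls. Among mutants, mutant 2 stood apart for Hoxa5 (1.98 against 0.43 to 0.682) and Hoxb5 (2.88 against 0.307 to 0.481). The effect of the genotype on Hoxb1 differed between Mesp1Cre and Mef2cAHF::Cre by 3.34 on the log2 scale in the interaction test by the sample labels (edgeR FDR 0.025), and by 1.5 by the column names (FDR 0.486).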

How the results depend on the processing

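Between tissues, single omissions gave 5 to 6 members called and the column names 4. The Mesp1Cre count of 0 became 2 by DESeq2 (Hoxb1 and Hoxd3, with 16.5% of all genes called) and 1 in the fit of 6 groups (Hoxb1, with 19.5%). It became 1 without the library richest in Hox reads of each group (Hoxa2, chosen after seeing the data, with the share over all genes not given here). Over single omissions it was 0 to 2, while 6.47% to 13.3% of all genes passed. It was 2 without control 3 (Hoxa2 and Hoxb5, with 8.33%) and 1 without mutant 3 (Hoxb1, with 7.9%). The stage count of 1 became 2 with no filter (24.5% of all genes) and 0 at 10 counts in every library (43%). It was 0 to 1 over single omissions (28% to 37%). The difference between Mesp1Cre and Tnnt2::Cre went from 0 members to 0 to 1 over single omissions. That between Mesp1Cre and Mef2cAHF::Cre went from 1 to 0 by the column names and 0 to 4 over single omissions. The shares over all genes in the single omissions between tissues and between lines are not given here. The cause was not tested in any of these changes.

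For expressed Hox genes, the 15 at E9.0 became 2 at a mean of 1 FPKM, 2 at 0.1 FPKM in every library, 2 at 10 counts in every library and 9 without the Hox-richest libraries. At E11.5 the 14 in whole heart became 0, 3, 2 and 9 under the same rules, and the 13 in the right ventricle and outflow tract became 3, 8 and 6 under the first 3.

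Signs turned for Hoxb3 (1.08), Hoxd3 (0.77) and Hoxc5 (-0.85) in Mef2cAHF::Cre by the column names. Between the stages, single omissions gave -1.23 to 0.24 for Hoxb3, -0.91 to 0.51 for Hoxa2 and -0.43 to 0.06 for Hoxb2. The upper ends are without Mesp1Cre control 3, and for Hoxb2 without Tnnt2::Cre control 1 (0.05 without Mesp1Cre control 3). In Tnnt2::Cre and Mef2cAHF::Cre the count of members called was 0 under every alternative run, and in Mesp1Cre it was 0 with the replicate block and with the number of the sample names as a block. Same-numbered libraries share a replicate number and, in Mesp1Cre, that number of the names. The depth of 53 to 1267 Hox reads per library limits what could be tested: 16 members had at most 10 reads in every library.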
